A study of Mus musculus with 6 samples.

Results

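The enzymes that modify or crosslink collagen were followed in single-nucleus RNA profiles of mouse brain lesions. The 10 genes were chosen by name, as lysyl oxidases (Lox, Loxl1, Loxl2, Loxl3, Loxl4), lysyl hydroxylases (Plod1, Plod2) and prolyl 4-hydroxylase α subunits (P4ha1, P4ha2, P4ha3), out of 32285 features counted. All 10 had UMIs (unique molecular identifiers, 1 per captured RNA molecule) in fibroblasts, and 9 of the 10 had enough for comparison. Lesions were made in the mouse cortex by photothrombosis, in which light and a dye close cortical vessels, and the lesions were dissected with some brain tissue still attached. DAPI-positive nuclei were sorted for droplet capture after 7 or 21 days (dpi, days post injury). The 3 conditions were wild-type mice with no treatment named (Ctrl), Col1a2(creER); Tgfbr2(flox) mice (Tgfbr2-cKO) and mice given ADWA11, an antibody that blocks integrin αvβ8. In the Tgfbr2-cKO mice a tamoxifen-inducible Cre under Col1a2 control removes the type II TGFβ receptor, so that the deletion is aimed at fibroblasts. The study used more than 1 floxed allele, and its methods describe tamoxifen-treated controls for such strains in general terms; which allele these mice carried and whether these Ctrl mice were treated is not specified for the libraries. ADWA11 was injected on the day of injury and weekly thereafter. Mice were adults of both sexes, and each of the 6 libraries pooled 1 male and 1 female mouse. With 1 library per group no test across mice was made, and all intervals below are 95% intervals for counting error only.

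Collagen chains are modified in the endoplasmic reticulum before they are secreted. Prolyl 4-hydroxylases, built from a catalytic α subunit and the shared β subunit P4hb, hydroxylate prolines so that the triple helix holds at body temperature. Lysyl hydroxylases act on lysines, Plod1 in the helix and Plod2 in the telopeptides at the chain ends. Outside the cell, lysyl oxidases oxidise lysines and hydroxylysines, and the products join neighbouring molecules into crosslinked fibres. Telopeptide hydroxylation by Plod2 gives the stable pyridinoline type of crosslink that is known from fibrotic scars.

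The 6 libraries held 7205 to 14246 barcodes and 64798965 to 140310354 UMIs, and 6583 to 13083 barcodes were kept as nuclei. The Tgfbr2-cKO library at 7 dpi stood apart, because 55.7% of its nuclei were neuron-like against 0.0806% to 11.3% in the other libraries, and how much attached brain tissue each library held was not measured. Fibroblast-like nuclei, named by their collagen and other stromal markers, numbered 1812 and 3643 in Ctrl at 7 and 21 dpi, 1984 and 2549 in ADWA11, and 287 and 185 in Tgfbr2-cKO. All 7 fibroblast markers were detected in every library. Levels are given as CPM, a gene's UMIs divided by all non-mitochondrial UMIs of these nuclei and scaled to 1e+06. The summed level of 6 neuron markers in the fibroblasts was 6.91, 6.29 and 161 CPM at 7 dpi and 4.84, 1.61 and 55.2 CPM at 21 dpi (Ctrl, ADWA11, Tgfbr2-cKO). The summed fibroblast markers moved with condition too, at 8171, 6636 and 4613 CPM at 7 dpi and 7052, 5308 and 2008 CPM at 21 dpi, and 6 oligodendrocyte markers reached 184 CPM in Tgfbr2-cKO at 21 dpi against 46.8 to 79.6 CPM elsewhere. The sum of 10 myeloid markers was 76.5 to 117 CPM and that of 5 astrocyte markers 136 to 380 CPM. In the order Ctrl, ADWA11, Tgfbr2-cKO, 6 osteoblast markers summed to 764, 688 and 421 CPM at 7 dpi and to 809, 717 and 304 CPM at 21 dpi. Of the 6 neuron markers 1 was at 0 in Ctrl and in ADWA11 at 21 dpi, and 0 were at 0 in the other 4 libraries. The part of these differences in the results was not tested. Of the nuclei in fibroblast-like clusters, a sub-cluster of 3629 with myeloid markers and one of 316 with neuron markers, 303 of them in Tgfbr2-cKO at 21 dpi, were left out as mixed. Tgfbr2 itself was at 321 CPM in Ctrl and 250 CPM in Tgfbr2-cKO fibroblasts at 7 dpi (log2 ratio -0.36, -0.50 to -0.22) and at 232 and 234 CPM at 21 dpi (0.02, -0.14 to 0.17). It was as low under ADWA11 at 7 dpi (250 CPM), where the gene is intact, so its level in these nuclear counts did not set the Tgfbr2-cKO libraries apart. Libraries shared 21 to 61 barcodes pairwise, at most 0.513% of the smaller library.

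Fibroblasts transcribed the enzymes at very different levels. As CPM per kilobase of gene span, averaged over the 6 libraries, Loxl1 was highest at 5.07 ± 1.94 (SD, n = 6), followed by Plod2 at 3.84 ± 1.33, P4ha1 at 3.54 ± 0.564, Loxl3 at 3.12 ± 0.569 and Lox at 2.75 ± 0.334. Within these 5, neighbours in the order did not differ beyond their spread over libraries. Plod1 followed at 1.70 ± 0.289, P4ha2 at 0.822 ± 0.275 and P4ha3 at 0.662 ± 0.337, and the last 2 overlapped. Loxl2 at 0.117 ± 0.0388 and Loxl4 at 0.0218 ± 0.00911 were far below on this scale. By CPM alone the order differed, with means of 254 ± 88.4 CPM for Plod2, 177 ± 28.2 for P4ha1 and 129 ± 49.5 for Loxl1. Loxl3 (57.4), Plod1 (45.8), Lox (37.9), P4ha2 (25.9), P4ha3 (22.6), Loxl2 (10.1) and Loxl4 (0.411) followed. Whether these counts scale with gene span was not tested. Loxl4 gave 1 to 10 UMIs per library in fibroblasts and was not compared there.

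A gene was called different between 2 libraries when its CPM differed at least 1.5-fold and the interval of the log2 ratio left out no change, among genes with 50 or more UMIs in the pair. At 7 dpi Loxl1 and P4ha3 were lower and P4ha2 was higher than in Ctrl in Tgfbr2-cKO, and likewise in ADWA11. In Tgfbr2-cKO 2 of 9 members were lower, beside 5.36% of all 12603 genes tested, and 1 was higher, beside 10.4%. In ADWA11 at 7 dpi 2 of 9 were lower, beside 5.3% of 14392 genes, and 1 was higher, beside 11.6%. At 21 dpi Plod2 and P4ha3 were lower in each intervention, and Loxl1 and Plod1 were lower in Tgfbr2-cKO. This made 4 of 9 members lower in Tgfbr2-cKO at 21 dpi, beside 8.7% of 14029 genes, and 0 higher, beside 10.2%. In ADWA11 at 21 dpi 2 were lower, beside 5.7% of 15327 genes, and 0 were higher, beside 8.11%. From 7 to 21 dpi in Ctrl, Loxl2 and P4ha3 were lower and P4ha2 was higher, 2 of 9 beside 12.5% of 14933 genes and 1 of 9 beside 19.6%. The comparisons of a day share their Ctrl library, so a high or low value there enters both.

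Over the 9 members the median log2 ratio was -0.17 in Tgfbr2-cKO and -0.09 in ADWA11 at 7 dpi, where the medians of all genes tested were 0.08 and 0.07. At 21 dpi it was -0.56 in Tgfbr2-cKO, where all genes had a median of -0.0020, and -0.11 in ADWA11, where all genes had 0.01. From 7 to 21 dpi in Ctrl the members' median was -0.08 beside 0.06 for all genes. The Tgfbr2-cKO library at 21 dpi therefore held the lowest member median of the 5 comparisons, on 185 nuclei. These medians are of pooled fibroblasts. Within the kept sub-clusters described below, medians over all 10 members at 7 dpi were -0.04 to 0.01 in Tgfbr2-cKO and -0.30 to 0.09 in ADWA11. At 21 dpi they were -0.41 and -0.06 in Tgfbr2-cKO and 0.14 to 0.39 in ADWA11. From 7 to 21 dpi in Ctrl they were -0.35 to 0.56. The part of sub-cluster shares in the pooled medians was not tested.

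**Figure D1:**
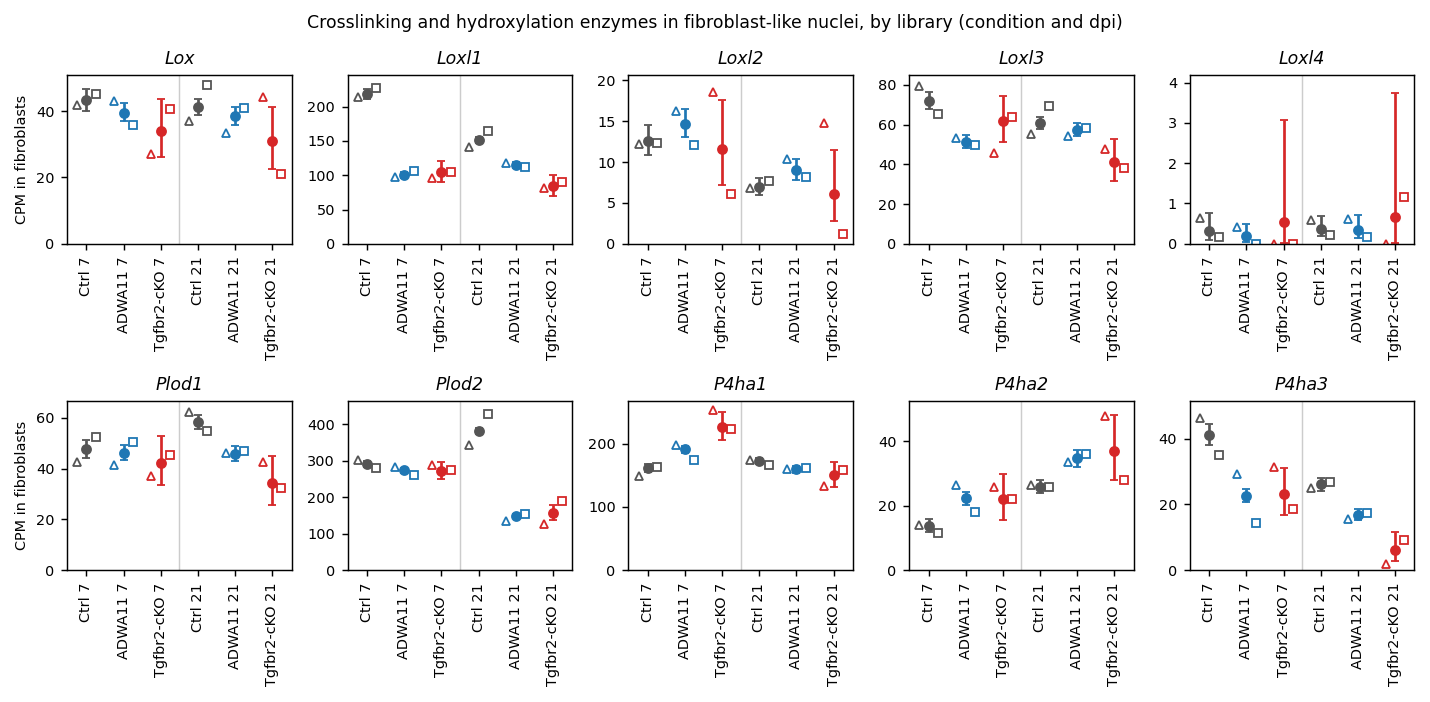
Level of each enzyme (CPM, linear axes from 0) in fibroblast-like nuclei of the 6 libraries, labelled by condition and dpi. Filled circles with bars are the library value and its 95% Poisson interval, open triangles and squares are the nuclei called female and male, and Plod2 at 21 dpi drops from 382 CPM in Ctrl to 148 in ADWA11 and 157 in Tgfbr2-cKO.

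**Figure D2:**
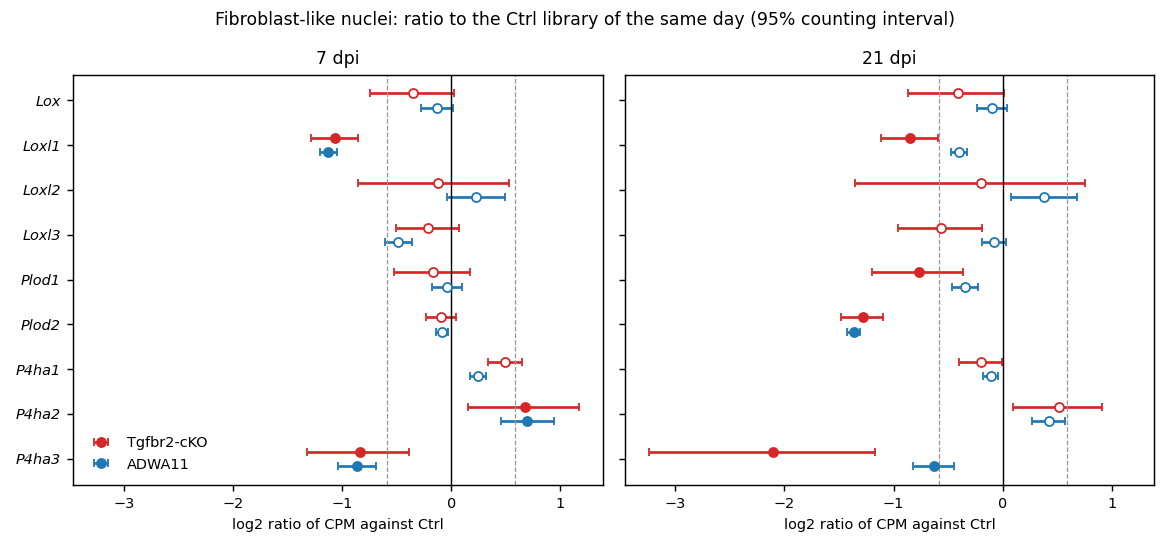
Log2 ratio of CPM against the Ctrl library of the same day for the 9 enzymes compared, with 95% counting intervals; red is Tgfbr2-cKO, blue is ADWA11, filled symbols passed the rule and dashed lines mark 1.5-fold. Loxl1 and P4ha3 lie to the left and P4ha2 to the right in both interventions at 7 dpi, and Plod2 lies to the left in both at 21 dpi.

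Among the lysyl oxidases, Loxl1 (ENSMUSG00000032334, chr9:58287738-58313186, minus strand), which is known for its role in elastic fibres as well as collagen, moved most. At 7 dpi its level in fibroblasts was 219 CPM in Ctrl (212 to 227), 100 CPM in ADWA11 (96.0 to 105) and 104 CPM in Tgfbr2-cKO (190 UMIs). The later levels, at 21 dpi, were 151 CPM in Ctrl, 114 CPM in ADWA11 and 84.2 CPM in Tgfbr2-cKO. Ctrl was the highest library on each day, and its interval overlapped neither of the others. The log2 ratios at 7 dpi were -1.07 in Tgfbr2-cKO (-1.29 to -0.86) and -1.13 in ADWA11 (-1.21 to -1.05), a 2.10-fold and a 2.18-fold lower level. At 21 dpi they were -0.85 in Tgfbr2-cKO (-1.11 to -0.59) and -0.40 in ADWA11 (-0.48 to -0.33), the latter short of 1.5-fold. The Tgfbr2-cKO ratio at 21 dpi was -1.93 with the Trpm3-led cluster described for Lox counted as fibroblasts, a choice made after seeing the data, and -1.83 with log-normalised clusters. Sex-linked RNA assigns part of the nuclei of each library to its female or its male mouse. Loxl1 at 7 dpi was at 215 and 228 CPM in the female and male Ctrl nuclei, 96.9 and 106 CPM under ADWA11 and 95.9 and 104 CPM in Tgfbr2-cKO, so that both intervention values lay below both Ctrl values. Of all genes tested, 19.5% in Tgfbr2-cKO and 21.6% in ADWA11 were lower in this way, so the separation is common and is given as a description.

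Lox, the founding member of the family and a main crosslinking enzyme of fibrillar collagen, stayed within a narrow range in pooled fibroblasts. Its level was 43.4, 39.6 and 34.1 CPM at 7 dpi in these libraries (Ctrl, ADWA11, Tgfbr2-cKO) and 41.1, 38.4 and 31.0 CPM at 21 dpi. Ctrl was highest on each day, but all 5 intervals of the log2 ratios included no change. The lowest of these ratios was -0.41 (-0.87 to 0.02), in Tgfbr2-cKO at 21 dpi. It was -1.53 when a neighbouring cluster led by Trpm3, Slc6a20a and Ptgds, which had 2 raised fibroblast markers and stayed unnamed, was counted with the fibroblasts. In the log-normalised clustering a sub-cluster of 1439 nuclei with Trpm3, Slc6a20a and Ptgds raised was kept among the fibroblasts, arachnoid-like by 5 markers, and the Lox ratio there was -1.47. Whether these nuclei are counted as fibroblasts thus moves the Tgfbr2-cKO ratios at 21 dpi. Within Ctrl myofibroblast-like nuclei Lox was 50.1 CPM at 7 dpi and 92.8 CPM at 21 dpi (71.8 to 118). Late inner-like nuclei of Ctrl held 35.6 and 54.2 CPM (49.8 to 59.0). In Ctrl it went from 22.0 to 30.1 CPM in sub-cluster 0, 31.8 to 30.3 in leptomeningeal-like and 55.4 to 42.7 in proliferating-like nuclei. Sub-cluster 0 at 21 dpi held 37.1 CPM in ADWA11 (34.4 to 40.0) and 25.3 CPM in Tgfbr2-cKO.

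Loxl3 (chr6:83034173-83052562, plus strand; Htra2 lies on the other strand) was at 72.0 CPM in Ctrl, 51.4 in ADWA11 and 62.1 in Tgfbr2-cKO at 7 dpi. By 21 dpi these were 60.6, 57.3 and 41.1 CPM. The lowest ratios were -0.48 in ADWA11 at 7 dpi (-0.61 to -0.36) and -0.56 in Tgfbr2-cKO at 21 dpi (-0.96 to -0.19), and neither reached 1.5-fold. At 21 dpi sub-cluster 0 held 43.2, 54.2 and 39.1 CPM of Loxl3 (Ctrl, ADWA11, Tgfbr2-cKO) and leptomeningeal-like nuclei 43.9, 55.2 and 41.4 CPM. Late inner-like nuclei held 85.5 CPM in Ctrl and 118 CPM in ADWA11 that day. Loxl2, an oxidase of basement membrane collagen among other substrates, was scarce, at 12.6, 14.7 and 11.5 CPM at 7 dpi and 6.95, 9.01 and 6.06 CPM at 21 dpi. It was lower at 21 than at 7 dpi in every condition, with log2 ratios of -0.86 in Ctrl (-1.16 to -0.56), -0.71 in ADWA11 (-0.98 to -0.44) and -0.93 in Tgfbr2-cKO, where 9 and 21 UMIs left an interval of -2.24 to 0.26. Within Ctrl sub-clusters the courses were mixed, with log2 ratios of -0.81 in proliferating-like (-3.22 to 0.98), 0.0031 in late inner-like (-1.16 to 1.40), 0.13 in leptomeningeal-like (-0.65 to 0.86), 0.83 in myofibroblast-like (-0.03 to 1.59) and 2.24 in sub-cluster 0 nuclei (-0.27 to 7.56), and all 5 intervals included no change. With sub-clusters weighted equally the Ctrl ratio turned to 0.17.

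Plod2 (ENSMUSG00000032374, chr9:92542223-92608428, plus strand; Gm38391 lies on the other strand), the telopeptide lysyl hydroxylase, was higher at 21 than at 7 dpi in pooled Ctrl fibroblasts and lower in those of the interventions. Within the kept sub-clusters of the interventions that could be compared over time, the intervals put it lower at 21 dpi only in leptomeningeal-like nuclei of ADWA11, and in Tgfbr2-cKO both ratios were above 0 (values below). At 7 dpi its levels lay close together, at 291 CPM in Ctrl (283 to 300), 274 CPM in ADWA11 (267 to 282) and 273 CPM in Tgfbr2-cKO (250 to 298). By 21 dpi the levels had parted, at 382 CPM in Ctrl (374 to 389), 148 CPM in ADWA11 (143 to 154) and 157 CPM in Tgfbr2-cKO (137 to 178). Against Ctrl this was a log2 ratio of -0.09 in each intervention at 7 dpi. At 21 dpi it was -1.28 in Tgfbr2-cKO (-1.48 to -1.10) and -1.36 in ADWA11 (-1.42 to -1.30), or 2.43-fold and 2.57-fold lower. From 7 to 21 dpi the level changed by 0.39 on the log2 scale in Ctrl (0.34 to 0.44), by -0.89 in ADWA11 (-0.95 to -0.82) and by -0.80 in Tgfbr2-cKO (-1.03 to -0.57). The intervals of the interventions lie apart from that of Ctrl, but whether the courses differ across mice was not tested. At 21 dpi the female and male nuclei gave 342 and 429 CPM in Ctrl, 135 and 154 CPM in ADWA11 and 125 and 189 CPM in Tgfbr2-cKO, below both Ctrl values as for 28.8% of all genes tested in Tgfbr2-cKO and 25.9% in ADWA11. With the sub-clusters below weighted equally, the 21 dpi ratio of Tgfbr2-cKO ended its call at -0.39 for Plod2 and at -0.29 for Loxl1, over the 2 sub-clusters with enough nuclei in both libraries. With the Trpm3-led cluster counted, the Plod2 ratio of Tgfbr2-cKO at 21 dpi was -1.92.

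Plod1 (chr4:147909753-147936767, minus strand), the helical lysyl hydroxylase, was at 47.6, 46.3 and 42.3 CPM at 7 dpi and at 58.3, 45.9 and 34.3 CPM at 21 dpi, in the order Ctrl, ADWA11 and Tgfbr2-cKO. Only Tgfbr2-cKO at 21 dpi passed the rule, with a log2 ratio of -0.76 (-1.20 to -0.36) on 51 UMIs. In the female nuclei alone this ratio was -0.55, and it was -0.49 with the mixed sub-cluster of myeloid markers counted, so that the call ended.

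The 3 prolyl 4-hydroxylase α subunits, which share 1 β subunit, parted at 7 dpi. Their promoters are shown from 250 bases before to 50 bases after the start site (RefSeq, GRCm38.p6, 5′ to 3′), with hypoxia-response cores marked. Whether these cores bear on the levels was not tested. These promoters were not measured here. Capitals mark every match to ACGTG or GCGTG on either strand. The windows are chr10:59323046-59323345 for P4ha1, chr11:54100674-54100973 for P4ha2 and chr7:100285270-100285569 for P4ha3, all on the plus strand. The RefSeq start of P4ha2 lies inside the gene span given for it below, downstream of the start of that span, so its counts hold for the RefSeq start alone, whereas the windows of P4ha1 and P4ha3 cover the start of their spans.
P4ha1: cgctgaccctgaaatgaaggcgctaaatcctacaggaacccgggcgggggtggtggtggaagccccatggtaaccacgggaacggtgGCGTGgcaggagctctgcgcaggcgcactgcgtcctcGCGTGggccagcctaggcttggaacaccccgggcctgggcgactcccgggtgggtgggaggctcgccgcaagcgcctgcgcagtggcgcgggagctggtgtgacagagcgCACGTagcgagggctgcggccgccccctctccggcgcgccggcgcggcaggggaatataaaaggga
P4ha2: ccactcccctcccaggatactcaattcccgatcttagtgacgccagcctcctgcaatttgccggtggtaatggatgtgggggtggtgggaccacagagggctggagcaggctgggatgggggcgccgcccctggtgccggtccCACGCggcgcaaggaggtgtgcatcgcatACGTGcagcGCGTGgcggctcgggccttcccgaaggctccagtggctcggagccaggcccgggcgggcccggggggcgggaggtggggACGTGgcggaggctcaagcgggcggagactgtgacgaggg
P4ha3: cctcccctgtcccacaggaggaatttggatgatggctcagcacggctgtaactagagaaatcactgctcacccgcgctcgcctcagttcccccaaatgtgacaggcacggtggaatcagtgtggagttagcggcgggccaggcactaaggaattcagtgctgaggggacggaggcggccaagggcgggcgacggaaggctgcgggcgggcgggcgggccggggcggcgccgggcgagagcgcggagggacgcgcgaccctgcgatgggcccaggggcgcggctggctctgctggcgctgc
The P4ha2 promoter held 4 matches, the P4ha1 promoter 3 and the P4ha3 promoter 0. Of 32851 promoters of this length, 43.8% held at least 1 match, 8.93% held 3 or more and 3.86% held 4 or more. None of the 3 windows held CAGAC, a short SMAD-type motif found on either strand of 49.6% of promoters. Promoters were at hand for 5 of the 10 members, and of the others Plod1 held 2 core matches and Loxl4 held 1. A match is a run of letters and no evidence of binding.

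P4ha2 (ENSMUSG00000018906, chr11:54100095-54131665, plus strand) was lowest in Ctrl on each day. At 7 dpi it was at 13.8 CPM in Ctrl (211 UMIs), 22.3 CPM in ADWA11 (20.3 to 24.4) and 22.0 CPM in Tgfbr2-cKO (15.7 to 29.9, 40 UMIs). The levels were 25.9, 34.7 and 37.0 CPM at 21 dpi. Ratios at 7 dpi were 0.70 in ADWA11 (0.46 to 0.94) and 0.68 in Tgfbr2-cKO (0.15 to 1.17), and at 21 dpi 0.42 and 0.51, below 1.5-fold. From 7 to 21 dpi P4ha2 was higher by 0.91 in Ctrl (0.69 to 1.14), 0.64 in ADWA11 and 0.75 in Tgfbr2-cKO. The Tgfbr2-cKO value at 7 dpi rests on few nuclei, and without the 5 nuclei of highest level in each library the ratio was 0.12. TMM scaling, which shifts all ratios of that comparison by -0.17, gave 0.50 and also ended the call. The ADWA11 ratio at 7 dpi was 0.49 with fibroblasts from log-normalised clusters and 0.54 with equal weight of sub-clusters, both short of 1.5-fold.

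P4ha3 (ENSMUSG00000051048, chr7:100285520-100319699, plus strand) went the other way. It was at 41.1 CPM in Ctrl (38.0 to 44.5), 22.6 CPM in ADWA11 (20.6 to 24.8) and 23.1 CPM in Tgfbr2-cKO (16.6 to 31.2) at 7 dpi. The 21 dpi level was 26.1 CPM in Ctrl (24.2 to 28.1), 16.8 CPM in ADWA11 (15.1 to 18.7) and 6.06 CPM in Tgfbr2-cKO (2.77 to 11.5, 9 UMIs). Ctrl was highest on each day, and no interval of an intervention reached that of Ctrl. The log2 ratios were -0.83 in Tgfbr2-cKO and -0.86 in ADWA11 at 7 dpi, and -2.11 (-3.24 to -1.17) and -0.63 (-0.82 to -0.44) at 21 dpi. P4ha3 was also 1.58-fold lower at 21 than at 7 dpi in Ctrl. The Tgfbr2-cKO call at 7 dpi ended in the female nuclei alone (-0.55), with log-normalised clusters (-0.40) and with equal weight of sub-clusters (-0.32). Equal weight also ended the ADWA11 call at 7 dpi (-0.50) and turned the ADWA11 ratio at 21 dpi to 0.38. The ADWA11 call at 21 dpi ended with log-normalised clusters (-0.43) and as mean CPM per nucleus (-0.48) too. The Tgfbr2-cKO call at 21 dpi, on 9 UMIs, ended with equal weight of sub-clusters (-0.62, -1.76 to 0.31), while the ratio was -3.40 with the Trpm3-led cluster counted.

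P4ha1 (ENSMUSG00000019916, chr10:59323296-59373304, plus strand), the most abundant α subunit in these nuclei by CPM per kilobase, had 7 dpi levels of 161 CPM in Ctrl, 191 CPM in ADWA11 and 227 CPM in Tgfbr2-cKO. The 21 dpi levels were 172, 160 and 150 CPM. The order of the 3 library values was thus turned between the days, but at 21 dpi they lay close together. The ADWA11 ratio at 21 dpi was -0.11, and the Tgfbr2-cKO level that day rested on 223 UMIs. The Tgfbr2-cKO ratio at 21 dpi was -0.20, with the same sign in 10 of 12 alternatives. It was 0.17 with the neuron-marked mixed sub-cluster counted, where Tgfbr2-cKO was above Ctrl on each day. The log2 ratio of 0.49 in Tgfbr2-cKO at 7 dpi (0.34 to 0.64) left out no change but stayed below 1.5-fold.

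Fibroblast sub-clusters differed in their enzymes, and conditions differed in their sub-clusters. Named from markers, they were myofibroblast-like, late inner-like (led by Rbpjl, Camk4 and Sox6), leptomeningeal-like and proliferating-like (34.2% of its nuclei called doublets), beside the unnamed sub-cluster 0 (Slc9a2, Slc47a1, Ccn3) and a small one led by interferon-response genes. Late inner-like nuclei were named from Fgf13, Cdh18 and Sema3c, and the osteoblast markers Sp7 and Runx2 were raised there too. In the log-normalised clustering a sub-cluster with Cdh18 and Sema3c raised stayed unnamed. In the order Ctrl, ADWA11, Tgfbr2-cKO, myofibroblast-like nuclei made up 55.2%, 58.5% and 41.1% of fibroblasts at 7 dpi and 1.95%, 0.314% and 1.62% at 21 dpi. The late inner-like share at 21 dpi was 38.3% in Ctrl, 4.94% in ADWA11 and 0.541% (1 nucleus) in Tgfbr2-cKO. Sub-cluster 0 made up 52.8%, 88.5% and 52.4% at 21 dpi. Values below are for libraries with 20 or more nuclei of a sub-cluster. The members and the genes of the fixed lists were left out of the variable genes used for clustering, and differences between sub-clusters are descriptions.

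Late inner-like nuclei held the highest mean Loxl1 (209 ± 45.6 CPM, SD over 4 libraries) and P4ha3 (82.9 ± 35.1 CPM), the latter 6.06 to 41.1 CPM in fibroblasts as a whole. An unnamed cluster left out of these fibroblasts, led by Col22a1, Bglap and Ibsp, held 68.9 ± 23.6 CPM of P4ha3 over 3 libraries. All 7 fibroblast markers were raised in this cluster beside 5 osteoblast markers, and it stayed unnamed because bone-matrix genes were in its lead. No alternative counted it with the fibroblasts. Myofibroblast-like nuclei held the highest mean Plod2 (372 ± 80.1 CPM, 4 libraries) and Lox (58.5 ± 23.0 CPM). Of the 5 sub-clusters measured in more than 1 library and kept, sub-cluster 0 had the lowest mean Plod2 (138 ± 60.4 CPM, 6 libraries) and Loxl2 (4.28 ± 3.44 CPM) and the highest mean P4ha2 (32.2 ± 9.68 CPM). Leptomeningeal-like nuclei held the least P4ha3 of these (7.54 ± 7.44 CPM). Where the SDs overlap, as between late inner-like and myofibroblast-like nuclei for Plod2 (339 ± 177 CPM and 372 ± 80.1 CPM), the order is not set apart from the spread over libraries.

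**Figure D3:**
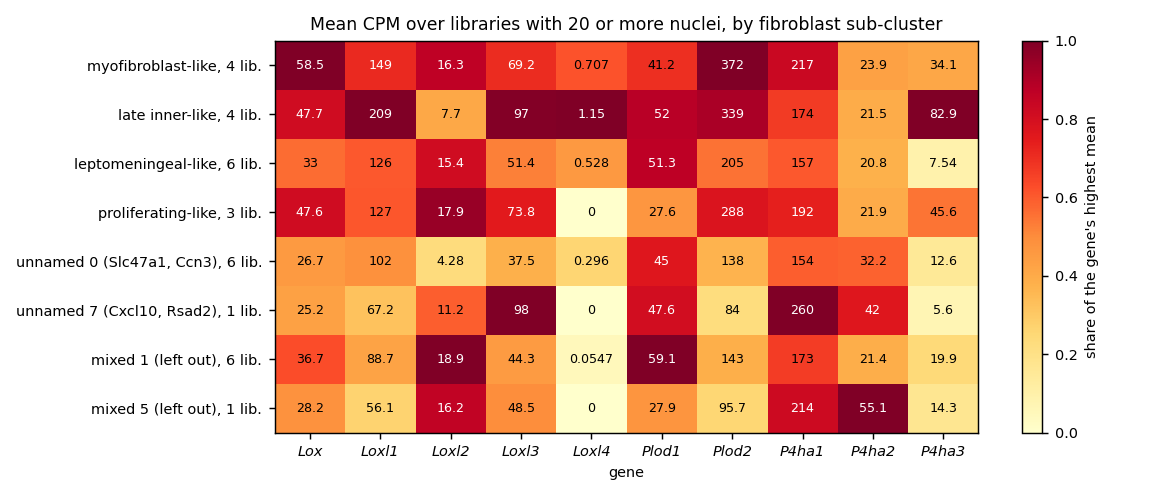
Mean CPM of each enzyme (written in the cells) by fibroblast sub-cluster over libraries with 20 or more nuclei, coloured as a share of the gene's highest mean; the number of libraries follows each name and the 2 sub-clusters left out as mixed are at the bottom. P4ha3 stands out in late inner-like nuclei (82.9 CPM) and Plod2 in myofibroblast-like (372 CPM) and late inner-like (339 CPM) nuclei.

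Within sub-clusters, Plod2 at 21 dpi was lower than in Ctrl in 4 of the 5 pairs that could be compared, the exception being leptomeningeal-like nuclei of Tgfbr2-cKO. In late inner-like nuclei it was 595 CPM in Ctrl and 216 CPM in ADWA11 (log2 ratio -1.46, -1.70 to -1.23). In sub-cluster 0 it was 241 CPM in Ctrl, 148 CPM in ADWA11 (-0.71, -0.78 to -0.64) and 85.2 CPM in Tgfbr2-cKO (-1.50, -1.86 to -1.17). In leptomeningeal-like nuclei it was 221, 137 and 268 CPM, so that ADWA11 was lower (-0.69) while Tgfbr2-cKO was not (0.28, -0.02 to 0.57). At 7 dpi myofibroblast-like nuclei of the 3 conditions held 320, 330 and 347 CPM of Plod2, and the intervals of both ratios included no change. In late inner-like nuclei ADWA11 was already lower at 7 dpi (222 against 324 CPM, -0.55, -0.79 to -0.31). In Ctrl, Plod2 was higher at 21 than at 7 dpi within late inner-like nuclei (595 against 324 CPM), myofibroblast-like nuclei (491 against 320 CPM) and sub-cluster 0 (241 against 152 CPM), while leptomeningeal-like (-0.03, -0.23 to 0.17) and proliferating-like nuclei (-0.33, -0.76 to 0.08) gave intervals that included no change. The lower pooled level of the interventions at 21 dpi was not matched within sub-cluster 0, where the ratio of 21 to 7 dpi was 0.19 in ADWA11 (-0.03 to 0.42) and 0.25 in Tgfbr2-cKO (-0.86 to 1.61), nor in late inner-like nuclei of ADWA11 (-0.04, -0.35 to 0.27). In leptomeningeal-like nuclei it was -0.34 in ADWA11 (-0.65 to -0.04) and 0.36 in Tgfbr2-cKO (0.02 to 0.71).

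The lower Loxl1 at 7 dpi was present within myofibroblast-like, leptomeningeal-like and late inner-like nuclei, and in sub-cluster 0 the intervals included no change. Myofibroblast-like nuclei held 236 CPM in Ctrl, 101 CPM in ADWA11 (-1.23, -1.34 to -1.13) and 88.4 CPM in Tgfbr2-cKO (-1.42, -1.77 to -1.08). Leptomeningeal-like nuclei held 187, 98.0 and 118 CPM, and late inner-like nuclei 249 CPM in Ctrl and 143 CPM in ADWA11. Sub-cluster 0 held 114, 117 and 112 CPM at 7 dpi, on 86, 146 and 20 nuclei. At 21 dpi it held 105 CPM in Ctrl, 112 CPM in ADWA11 and 48.3 CPM in Tgfbr2-cKO, while late inner-like nuclei of Ctrl (220 CPM) and ADWA11 (223 CPM) differed by less than counting error. Leptomeningeal-like nuclei at 21 dpi held 119 CPM in Ctrl, 99.9 CPM in ADWA11 and 135 CPM in Tgfbr2-cKO, whose ratio of 0.18 (-0.23 to 0.59) was on the other side of 0.

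P4ha2 at 7 dpi was higher within myofibroblast-like nuclei of ADWA11 (22.7 CPM, 0.67, 0.36 to 0.98) and Tgfbr2-cKO (26.3 CPM, 0.88, 0.16 to 1.54) than of Ctrl (14.3 CPM), and within leptomeningeal-like nuclei of ADWA11 (18.5 CPM; log2 ratio 0.75, 0.18 to 1.35). At 21 dpi P4ha2 in sub-cluster 0 was at 30.2 CPM in Ctrl, 34.6 CPM in ADWA11 (0.20, 0.02 to 0.38) and 48.3 CPM in Tgfbr2-cKO (0.68, 0.19 to 1.14), the last past 1.5-fold. Late inner-like nuclei were past it too, at 39.3 CPM of P4ha2 in ADWA11 against 19.8 CPM in Ctrl (0.99, 0.36 to 1.56), although the pooled 21 dpi ratios were not. In leptomeningeal-like nuclei the intervals of both P4ha2 ratios at 21 dpi included no change (0.39, -0.47 to 1.23 in ADWA11 and -0.04, -1.11 to 0.95 in Tgfbr2-cKO). P4ha1 in myofibroblast-like nuclei at 7 dpi was 166 CPM in Ctrl, 204 CPM in ADWA11 (0.30, 0.20 to 0.39) and 266 CPM in Tgfbr2-cKO (0.68, 0.47 to 0.89), the last past 1.5-fold. In leptomeningeal-like nuclei of Tgfbr2-cKO the P4ha1 ratio was 0.39 (0.09 to 0.68), and in sub-cluster 0 it was -0.05 (-0.97 to 0.76). P4ha3 in myofibroblast-like nuclei at 7 dpi was 38.1 CPM in Ctrl and 21.0 CPM in ADWA11 (-0.86, -1.11 to -0.62), and 31.1 CPM in Tgfbr2-cKO (-0.30, -0.93 to 0.28). Leptomeningeal-like nuclei held 12.1, 8.64 and 19.6 CPM that day (Ctrl, ADWA11, Tgfbr2-cKO). Sub-cluster 0 held 13.2 and 23.8 CPM in Ctrl and ADWA11, and 0 UMIs in 20 nuclei of Tgfbr2-cKO. In Ctrl and ADWA11, late inner-like nuclei held 123 and 99.1 CPM and proliferating-like nuclei 67.2 and 26.8 CPM. At 21 dpi P4ha3 in ADWA11 was not lower than in Ctrl within the larger sub-clusters. It was higher in ADWA11 than in Ctrl in late inner-like nuclei (64.5 against 44.7 CPM, 0.53, 0.06 to 0.97), and in sub-cluster 0 it was 15.8 CPM in ADWA11, 13.6 CPM in Ctrl and 9.21 CPM in Tgfbr2-cKO, with both intervals including no change. Leptomeningeal-like nuclei held 3.19 CPM in Ctrl and 1.73 CPM in Tgfbr2-cKO at 21 dpi, on 4 and 1 UMIs, and 0 UMIs in ADWA11. In Ctrl, late inner-like nuclei held 123 CPM of P4ha3 at 7 dpi and 44.7 CPM at 21 dpi (-1.46, -1.71 to -1.21). With the sub-clusters given equal weight, the P4ha3 ratio of ADWA11 at 21 dpi was 0.38 in place of -0.63.

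**Figure D4:**
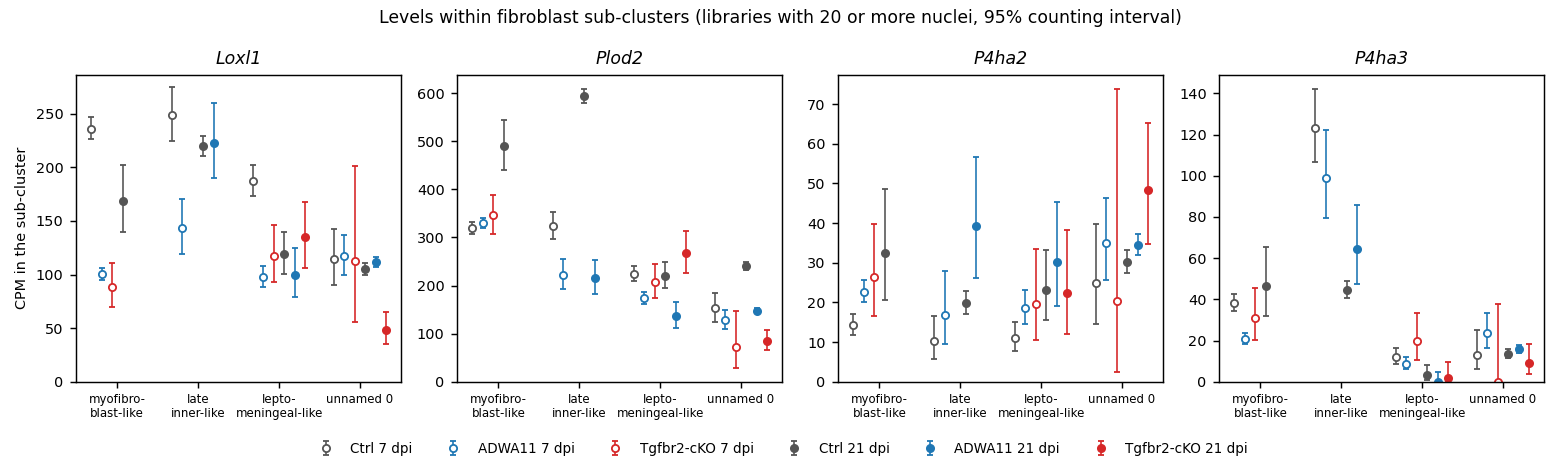
Levels (CPM, linear axes from 0) of Loxl1, Plod2, P4ha2 and P4ha3 within 4 fibroblast sub-clusters; open symbols are 7 dpi, filled symbols 21 dpi, colours are the conditions and bars are 95% Poisson intervals, for libraries with 20 or more nuclei. Plod2 at 21 dpi is highest in Ctrl in late inner-like nuclei (595 CPM) and sub-cluster 0 (241 CPM), and Loxl1 at 7 dpi is highest in Ctrl in all but sub-cluster 0.

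Outside fibroblasts the enzymes were spread over other classes, each in its own way. Loxl1 (mean over libraries 129 CPM) and Plod2 (254 CPM) had their highest means in fibroblast-like nuclei. For Plod2 the spread there (± 88.4 CPM, SD over 6 libraries) overlapped that of the unnamed cluster led by Col22a1 and Bglap (188 ± 56.2 CPM, 3 libraries). In ADWA11 at 21 dpi that cluster held 206 CPM of Plod2 and fibroblasts 148 CPM. P4ha3 was highest in astrocyte-like nuclei, with 7 dpi levels of 271 CPM in Ctrl, 192 CPM in ADWA11 and 79.7 CPM in Tgfbr2-cKO, followed by 215, 216 and 123 CPM. In these nuclei it was lower in Tgfbr2-cKO on each day (-1.76, -2.03 to -1.50, and -0.81, -0.93 to -0.70). The Tgfbr2-cKO library at 7 dpi held a far larger share of neuron-like nuclei than the others. The part of attached brain tissue in these values was not tested. Plod1 in myeloid-like nuclei was at 69.7, 62.3 and 104 CPM at 7 dpi and 77.7, 52.4 and 105 CPM at 21 dpi. Its mean there (78.5 ± 21.8 CPM, SD over 6 libraries) did not differ beyond the spread from endothelial-like nuclei (68.4 ± 5.94 CPM, 5 libraries), which were above it in Ctrl at 7 dpi and in ADWA11 on each day. In myeloid-like nuclei, Tgfbr2-cKO was above Ctrl and ADWA11 below it on each day. P4ha1 was also high in myeloid-like nuclei, at 221, 192 and 326 CPM at 7 dpi and 231, 150 and 229 CPM at 21 dpi.

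T cell-like nuclei are not known to make collagen. They held 19.8 to 43.6 CPM of Plod2 in the 6 libraries, where fibroblasts held 148 to 382 CPM, and 0.914 to 5.92 CPM of P4ha3 in the 5 libraries with a UMI. Their P4ha1 was 84.2 to 117 CPM, where fibroblasts held 150 to 227 CPM. Plod2 in T cell-like nuclei was itself lower in Tgfbr2-cKO than in Ctrl at 21 dpi (21.9 against 43.6 CPM). In astrocyte-like nuclei Plod2 at 21 dpi was 179 CPM in Ctrl, 99.9 CPM in ADWA11 and 69.3 CPM in Tgfbr2-cKO, and in endothelial-like nuclei 108, 45.3 and 46.0 CPM, and the share of free fibroblast RNA in these values was not tested. Loxl3 under ADWA11 at 21 dpi was above Ctrl in myeloid-like nuclei (46.8 against 24.1 CPM), where Tgfbr2-cKO was at 25.1 CPM.

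A small unnamed cluster led by Col22a1, Bglap and Ibsp, genes of mineralised matrix, held the highest means of Lox (69.9 ± 14.5 CPM, 3 libraries with 50 or more nuclei), Loxl3, Loxl4, P4ha1 and P4ha2 (63.0 ± 4.79 CPM) among classes. Loxl4 was at 13.2 CPM in ADWA11 at 7 dpi and at 15.7 and 14.3 CPM in Ctrl and ADWA11 at 21 dpi there. It was at 0.197 to 0.673 CPM in the nuclei counted as fibroblasts, which leave this cluster out although all 7 fibroblast markers were raised in it. The cluster held 2 nuclei in each Tgfbr2-cKO library, 42 and 191 in Ctrl and 88 and 297 in ADWA11.

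**Figure D5:**
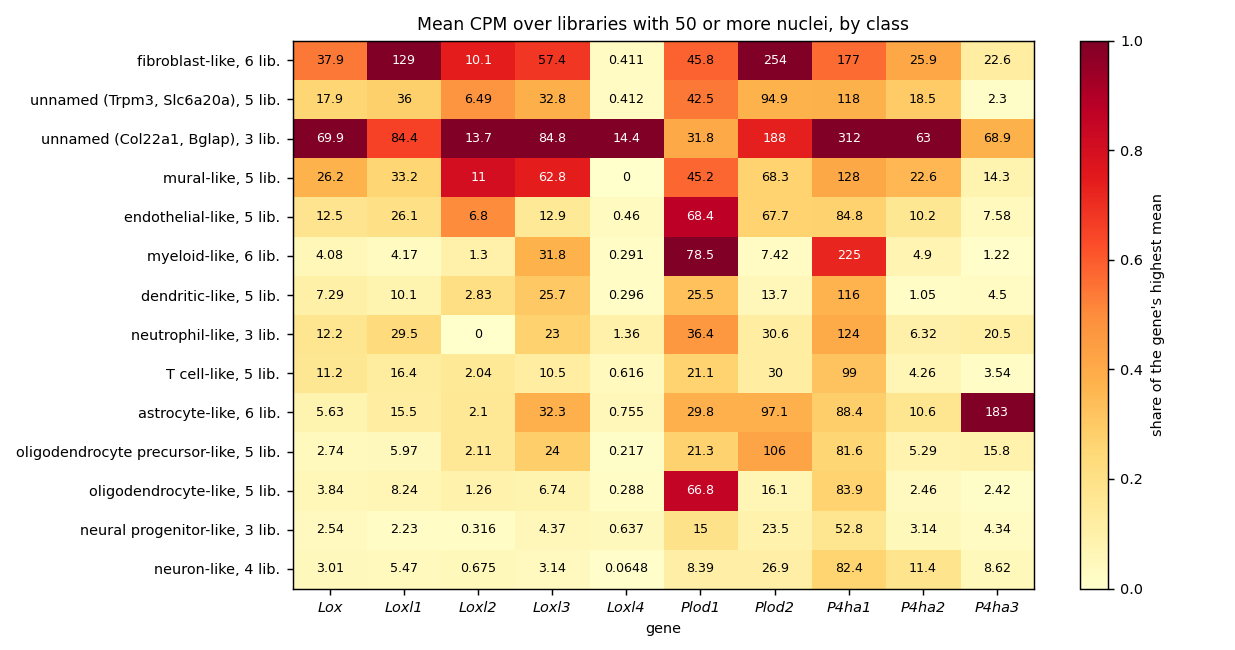
Mean CPM of each enzyme (written in the cells) by class of nuclei over libraries with 50 or more nuclei, coloured as a share of the gene's highest mean. Loxl1 and Plod2 peak in fibroblast-like nuclei, Plod1 has close means in myeloid-like (78.5 CPM) and endothelial-like (68.4 CPM) nuclei, and P4ha3 peaks in astrocyte-like nuclei (183 CPM) and Loxl4 in the unnamed cluster led by Col22a1 and Bglap (14.4 CPM).

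Other genes of collagen handling and of the upstream pathways were read from fixed lists in the same fibroblasts, and their counts stand beside the shares of all genes given above for each comparison. Of 7 collagen chains, the substrates of these enzymes, Tgfbr2-cKO fibroblasts had 3 lower at 7 dpi, 4 lower at 21 dpi and 0 higher on either day, where 5.36% and 8.7% of all genes were lower. At 21 dpi Col1a2 was 5.19-fold, Col1a1 4.47-fold, Col3a1 4.15-fold and Col5a2 2.89-fold lower in Tgfbr2-cKO. Under ADWA11 only Col1a1 at 7 dpi passed (1.64-fold lower). At 21 dpi Plod2 passed the rule and 0 of 7 chains did, but all 7 chains were below Ctrl. Their median was -0.44 beside 0.01 for all genes. Of 20 further collagen-processing enzymes and chaperones tested, 4 were higher in Tgfbr2-cKO at 7 dpi (Adamts14 2.80-fold, P3h2 1.73-fold, Colgalt1 1.66-fold and Tgm2 1.57-fold) and 1 was lower (P3h3, 1.53-fold), with a median of -0.09 beside 0.08 for all genes. Of all genes 10.4% were higher and 5.36% lower in this comparison. In ADWA11 at 7 dpi 2 were higher (Adamts14 1.94-fold and P3h2 1.56-fold) and 1 was lower (Adamts3, 1.63-fold), with a median of -0.13 beside 0.07, and both counts lie near the shares of all genes (11.6% and 5.3%). At 21 dpi 8 were lower and 1 was higher in Tgfbr2-cKO, beside 8.7% and 10.2% of all genes, with a median of -0.44 beside -0.0020. Adamts3, a procollagen N-proteinase, was 5.23-fold lower, the collagen chaperone Serpinh1 3.14-fold, the procollagen C-proteinase Tll1 2.46-fold and the prolyl isomerase Fkbp14 2.43-fold, while P3h2, a prolyl 3-hydroxylase, was 3.89-fold higher. In ADWA11 1 was lower and 1 higher at 21 dpi (Adamts3 2.38-fold lower, Adamts14 2.10-fold higher), near the shares of all genes (5.7% and 8.11%).

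Of 11 TGFβ target genes, 7 were lower in each intervention at 7 dpi, with medians of -0.87 in Tgfbr2-cKO and -0.92 in ADWA11, and 0 were higher, beside 5.36% and 5.3% of all genes lower. At 21 dpi 7 were lower in ADWA11 and 4 in Tgfbr2-cKO, where Smad7 was higher, beside 5.7% and 8.7% of all genes lower. Tnc, a matrix glycoprotein, was 3.81-fold lower in Tgfbr2-cKO and 2.21-fold lower in ADWA11 at 7 dpi. Of 9 hypoxia-responsive genes tested in Tgfbr2-cKO at 7 dpi, 7 were higher, beside 10.4% of all genes, with a median of 1.00, led by Ndrg1 (2.81-fold), Bnip3 (2.64-fold), Slc2a1 (2.51-fold) and Pdk1 (2.12-fold). Bnip3 and Slc2a1 rested on 36 and 17 UMIs in Tgfbr2-cKO. Egln3 of the same list went the other way without passing the rule (-0.52, -1.03 to -0.04). Of 11 in ADWA11 at 7 dpi, 4 were higher, beside 11.6% of all genes, with a median of 0.36. P4ha2, P4ha1 and Plod2 are known as hypoxia-responsive too, and of these P4ha2 passed the rule at 7 dpi in pooled fibroblasts, P4ha1 passed 1.5-fold in myofibroblast-like nuclei of Tgfbr2-cKO alone, and the Plod2 ratio in pooled fibroblasts was -0.09 in each intervention.

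Across 21 units (a fibroblast sub-cluster in 1 library, with 50 or more nuclei), the gene closest to P4ha2 among 7166 genes was Pdha1 (r = 0.90), followed by Xdh (0.87) and Ndrg1 (0.86). Closest to Plod2 were Wwtr1 (0.91), Emp1 (0.83) and Fbn1 (0.83), to Loxl1 Bcar3 (0.90), Igf1 (0.88) and Adcy7 (0.84), and to P4ha3 Airn (0.95), Gm41724 (0.95) and Thbs2 (0.94). Among the members themselves Loxl3 and P4ha3 were most alike (r = 0.79) and Loxl1 and P4ha2 least (r = -0.54). The units share libraries and depth, and these correlations are a description.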

How the data were processed

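The 6 single-nucleus libraries (10x Chromium 3′ chemistry), 1 per condition and day, were analysed. The authors aligned reads to mm10 with Cell Ranger (7.2.0 in the file headers, 7.1.0 in the submitters' processing notes) and deposited filtered matrices of UMI counts per gene and barcode. Whether intronic reads were counted is not stated in the sources used here. Barcodes outside the 2.5 to 97.5 percentiles of UMIs per library were removed. Nuclei were normalised (sctransform 0.4.2, 3000 variable genes) and clustered in Seurat 5.3.0 (30 components, resolution 0.5, fibroblasts again at 0.2). The members and the genes of the fixed lists were left out of the variable genes, which left 2961 for all nuclei and 2942 for fibroblasts. Clusters were named from fixed markers when 3 or more were raised. Doublet calls were recorded and not removed. Counts were summed per class and library and given as CPM of non-mitochondrial UMIs, with exact Poisson intervals (95%) and exact conditional binomial intervals for ratios (SciPy 1.17.1), which cover counting error only. Comparisons used genes with 50 or more UMIs in the pair. Median depth was 4601.5 to 8222.5 UMIs per nucleus. Members of each library were assigned to the female or male mouse by sex-linked genes. Scripts were tested on simulated data. All 10 members are named. Other genes are named from lists when past the fold (Egln3 at 7 dpi is an exception), at most 4 per list and comparison, largest first. For likeness they are the 3 highest Pearson r of log2(CPM + 10) over sub-clusters and libraries. The members and lists were chosen with earlier results of these data known. Alternatives were TMM scaling (edgeR 4.0.16), log-normalised clustering, 1 mouse at a time, mixed sub-clusters counted, nuclei of highest level left out, every called doublet left out, mean CPM per nucleus, equal weight of sub-clusters, a filter of 10 UMIs and a 2-fold limit; counting the Trpm3-led cluster or 1 mixed sub-cluster was added after seeing the data.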

Additional observations from a re-analysis of the deposited data

How the results depend on the processing

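No paired analysis was possible, because each group was 1 library that pooled 1 male and 1 female mouse. Ratios within the female and within the male nuclei, whose sex was called from the data, are among the alternatives as values without a test. Of 600 values of members under the alternatives, 500 stayed within their error and call, 98 moved and 2 reversed. The calls of Loxl1 at 7 dpi in Tgfbr2-cKO (-1.32 to -0.76) and ADWA11 (-1.29 to -0.89), of Plod2 in ADWA11 at 21 dpi (-1.48 to -1.08) and of P4ha2 from 7 to 21 dpi in Ctrl (0.73 to 1.16) held under the 12 alternatives that recompute the ratio; at a 2-fold limit the last of these did not pass. With equal weight of sub-clusters the Tgfbr2-cKO ratio at 21 dpi was -0.39 for Plod2, -0.29 for Loxl1, both under 1.5-fold, and -0.62 for P4ha3, past 1.5-fold with an interval that included no change (-1.76 to 0.31), over 2 sub-clusters, and the P4ha3 ratio of ADWA11 at 21 dpi reversed to 0.38 and the Loxl2 ratio of Ctrl over time to 0.17.

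Of 9 members, the number higher in Tgfbr2-cKO at 7 dpi was 0 under TMM, without the top nuclei, by mean CPM per nucleus, with equal weight and at 2-fold, and 2 in the female mouse, and the number lower was 1 with log-normalised clusters, with equal weight and at 2-fold. In Tgfbr2-cKO at 21 dpi 1 was higher in the female mouse and with the myeloid-marked sub-cluster, and 2 with both mixed sub-clusters and with the neuron-marked one alone; 7 were lower in the male mouse, 1 with equal weight and 2 at 2-fold, and the median was -1.15 without the top nuclei. In ADWA11 at 7 dpi 0 were higher with log-normalised clusters, with the Trpm3-led cluster, with equal weight and at 2-fold, 1 was lower with equal weight and at 2-fold, and the median was -0.22 with log-normalised clusters. In ADWA11 at 21 dpi 1 was higher in the female mouse, and 1 was lower with log-normalised clusters, by mean CPM per nucleus, with equal weight and at 2-fold; the median was 0.38 with equal weight. Over time in Ctrl 1 was lower in the male mouse, by mean CPM per nucleus and with equal weight and 0 at 2-fold, 2 were higher in the male mouse and 0 at 2-fold, and the median was 0.17 with equal weight. The cause of these changes was not tested. Fewer than 300 fibroblast nuclei in each Tgfbr2-cKO library limit the precision there.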

Other observations

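In whole libraries, where the share of fibroblasts enters, Plod2 was at 119 CPM and then 211 CPM in Ctrl at 7 and 21 dpi, at 94.6 and 63.3 CPM in ADWA11, and at 23.2 and 31.9 CPM in Tgfbr2-cKO. Loxl1 was at 78.5 and 82.4 CPM in Ctrl, 29.2 and 45.5 CPM in ADWA11, and 2.63 and 8.65 CPM in Tgfbr2-cKO. Fibroblast-like nuclei were 21.8%, 18.1% and 2.71% of the nuclei at 7 dpi and 27.8%, 20.5% and 2.81% at 21 dpi, so that fewer fibroblasts and less RNA per fibroblast cannot be told apart in these library sums. P4ha1, which many classes transcribe, was at 175 and 165 CPM, 168 and 144 CPM, and 103 and 126 CPM in the same order.

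Of 10 hypoxia-responsive genes tested at 21 dpi, 3 were higher in each intervention, beside 10.2% of all genes in Tgfbr2-cKO and 8.11% in ADWA11, and 1 was lower, beside 8.7% and 5.7%. The list medians lay on different sides of 0, at 0.50 in Tgfbr2-cKO and -0.16 in ADWA11, beside -0.0020 and 0.01 for all genes. The lower gene was Egln3, a prolyl hydroxylase of the hypoxia-inducible factors, at 3.55-fold in Tgfbr2-cKO and 1.97-fold in ADWA11. Ndrg1 levels at that time were 72.6 CPM (Ctrl), 144 CPM (ADWA11) and 135 CPM (Tgfbr2-cKO).

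The genes most like the remaining members over sub-clusters and libraries were Synpo (r = 0.89), Col6a3 (0.88) and Cdk14 (0.85) for Loxl3, Msn (0.79), Cspg4 (0.76) and Ubtd2 (0.76) for Lox, Rnf150 (0.84), Lrrk2 (0.79) and Ptpn12 (0.79) for Loxl2, Chd9 (0.84), Zmynd11 (0.82) and Kmt5b (0.79) for Plod1, and Eif1a (0.79), Npm1 (0.77) and Adnp2 (0.77) for P4ha1, each over 21 units that share libraries.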
